A study of Mus musculus with 12 samples.

Results

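The genes described here encode proteins of the tight junction and related adhesion proteins: the junctional adhesion molecules Jam2, Jam3 and F11r, the adhesion receptor Pecam1, occludin (Ocln), the claudins Cldn4, Cldn6 and Cldn7, and the scaffold Tjp1. They are 9 of 22180 genes that the array annotation names by a single symbol, each read from its probe set with the highest mean over 12 arrays, and each of the 9 has 1 such probe set. Jam2 and Ocln were chosen by their values, since both fall stepwise from WT/mock through KO/mock to KO/ERRb-wt. Their differences between these labels are therefore given as a description with no test, whereas the other 7 carry the adjusted p of a fit over all probe sets.

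All samples are K3 mouse embryonic stem (ES) cells. They were maintained in N2B27, a serum-free medium, with LIF, the GSK3 inhibitor CH99021 and the MEK inhibitor PD0325901. All of them, controls included, then spent 3 days in N2B27 with both inhibitors and doxycycline, a step for which the labels list no LIF. The labels give WT/mock (clones 5-2 and 5-5), KO/mock with Esrrb knocked out (clones 8-3 and 8-4) and KO/ERRb-wt (clones 12-1 and 12-3), knockout cells given a lentivirus that expresses ERRb, the nuclear receptor that Esrrb encodes. Each clone has 2 arrays that the labels call biological replicates, so each label rests on 2 clones and 4 arrays. Neither the position of the lesion nor the virus construct is described in the labels.

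Tight junctions seal the space between neighbouring epithelial cells and separate the apical from the basolateral membrane. Claudins and occludin span the membrane and form the sealing strands, zonula occludens scaffolds such as ZO-1 (Tjp1) tie them to actin, and junctional adhesion molecules are immunoglobulin-superfamily receptors that join cells beside the strands. Naive ES cells grow as compact colonies with epithelial features and express E-cadherin, several claudins and Pecam1, which is best known from endothelium.

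Esrrb itself, the targeted gene, went against the labels. Its mean log2 level was 7.38 in WT/mock, 7.66 in the arrays labelled KO/mock and 6.73 in those labelled KO/ERRb-wt. KO/mock minus WT/mock was 0.28 (adjusted p = 0.324, limma), and KO/ERRb-wt minus KO/mock was -0.93 (adjusted p = 0.00436, limma). The labels do not say where the probes lie relative to the lesion or whether they read the viral transcript, so this probe set does not establish which arrays carry ERRb. Each group is therefore called by its label, and no direction below is read as loss or gain of ERRb. Of 10 ES cell markers, 9 had a mean log2 level of at least 6. Their summed linear level ranged from 18888 to 19726 on the WT/mock arrays. It ran from 18239 to 18517 on KO/mock and from 17069 to 17704 on KO/ERRb-wt. The label order of Jam2 and Ocln is also the order of this sum, which the brightest markers weigh on most. Against WT/mock 1 of 10 ES cell markers was called lower in KO/mock and 3 of 10 in KO/ERRb-wt (adjusted p under 0.05, limma), and 0 higher. Of all genes 3.47% and 12.0% were called lower there. Between KO/ERRb-wt and KO/mock 2 of 10 were called lower and 0 higher, beside 3.17% of all genes lower. Other markers of the list did not fall. Against WT/mock its median log2 difference was -0.011 in KO/mock (5 of 10 markers lower) and -0.040 in KO/ERRb-wt (6 of 10 lower). Between KO/mock and KO/ERRb-wt the median change was 0.0025, with 5 of 10 lower. Of 10 endothelial markers 2 reached a level of 6, Eng (clone means 8.89 to 9.28) and Egfl7 (6.84 to 6.95). Cdh5 and Kdr, picked after their values were seen, had group means of at most 4.71 and 4.79. Of 10 feeder fibroblast markers 1 reached that level, and of the primitive endoderm and trophectoderm markers 4 of 10 and 6 of 10 did. In bulk RNA, fewer cells of a kind and less RNA per cell cannot be told apart. The part of these markers in the results was not tested.

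Promoter windows are shown as examples for Ocln, Cldn4 and Cldn6, from the 6 members that have a window in the RefSeq table used here. The windows of F11r, Tjp1 and Cldn7 are not printed. Each runs from 250 bases before to 50 bases after a RefSeq gene start of mouse build GRCm38.p6 and is printed in the direction of the gene. The capitals mark the E-box CAGGTG, or CACCTG where it lies on the other strand, the hexamer that repressors of the Snail and Zeb families are known to bind in epithelial junction genes. The Ocln window is chr13:100552449-100552748 (minus strand), the Cldn4 window chr5:134946885-134947184 (minus strand) and the Cldn6 window chr17:23679115-23679414 (plus strand).
Ocln: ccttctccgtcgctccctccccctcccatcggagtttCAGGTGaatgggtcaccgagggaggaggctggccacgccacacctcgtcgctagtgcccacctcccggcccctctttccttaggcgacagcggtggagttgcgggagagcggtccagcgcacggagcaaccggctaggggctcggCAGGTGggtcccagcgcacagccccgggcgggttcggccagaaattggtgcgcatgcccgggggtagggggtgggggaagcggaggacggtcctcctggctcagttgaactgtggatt
Cldn4: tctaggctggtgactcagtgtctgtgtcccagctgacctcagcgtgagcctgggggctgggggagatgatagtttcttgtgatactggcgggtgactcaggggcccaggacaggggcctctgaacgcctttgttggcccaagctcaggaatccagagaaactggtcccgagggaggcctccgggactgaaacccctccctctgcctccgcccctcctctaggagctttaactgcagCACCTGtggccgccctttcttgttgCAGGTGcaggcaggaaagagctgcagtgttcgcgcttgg
Cldn6: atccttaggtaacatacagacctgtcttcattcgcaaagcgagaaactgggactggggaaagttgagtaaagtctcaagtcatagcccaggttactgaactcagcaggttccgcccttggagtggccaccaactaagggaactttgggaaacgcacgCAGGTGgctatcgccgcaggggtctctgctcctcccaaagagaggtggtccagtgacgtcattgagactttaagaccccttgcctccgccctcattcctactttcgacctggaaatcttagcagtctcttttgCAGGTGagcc
The 6 members in the table (F11r, Ocln, Tjp1, Cldn4, Cldn6 and Cldn7) have 8 windows. CAGGTG was found on either strand in 6 of those 8 windows and in 5 of the 6 genes, all but Tjp1, and in 20.2% of all 32851 windows of the same length. The Tjp1 window and 1 Cldn7 window hold 0 matches, whereas each printed window holds 2, so the printed windows do not stand for all 8. In Ocln the matches begin at -213 and -68 from the start site shown, and the farther match is the same run of bases as the match 8 bases after the start of a second, overlapping Ocln window. In Cldn4 the matches begin at -14 and +12, on opposite strands, and in Cldn6 at -93 and +41. The ERR response element TCAAGGTCA, present in 0.423% of all windows, and the grainyhead-like element AACCGGTT, present in 0.146%, had no match in the 8 windows on either strand. CAGGTG was found in windows of genes that read lower and of a gene that read higher, and a match describes letters only.

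Jam2, an adhesion molecule that pairs with Jam3 across cell contacts, had the largest differences from WT/mock among the 9 genes. On the WT/mock arrays its log2 level was 9.90 and 9.93 in clone 5-2 and 10.21 and 10.23 in clone 5-5. On KO/mock it was 8.99 and 8.84 in clone 8-3 and 9.09 and 9.25 in clone 8-4. On KO/ERRb-wt it was 8.69 and 8.69 in clone 12-1 and 8.43 and 8.62 in clone 12-3. All 4 arrays of each label lie below all arrays of the label before it, and no groups overlap. The KO/mock mean was 1.02 ± 0.11 (SE, n = 4 arrays per label) below the WT/mock mean on the log2 scale, which is 2.03-fold lower. The KO/ERRb-wt mean was a further 0.44 ± 0.11 lower, which puts it 2.76-fold below WT/mock. Within each label the Jam2 arrays of the 2 clones do not overlap, whereas these SEs count arrays of a clone as nearly independent. Leaving out any array or clone kept the sign of each Jam2 difference, which was fixed in advance because the labels do not overlap. The other settings tried kept it too, but Jam2 was chosen by its fall, so this lends it no support.

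Jam3, the binding partner of Jam2, had no called difference between labels, and the sign of each of its differences changed under some alternative fit. Its arrays ran from 6.39 to 6.55 in WT/mock, from 6.34 to 6.62 in KO/mock and from 6.34 to 6.53 in KO/ERRb-wt, and all 3 groups overlap. The differences were -0.03 (95% interval -0.20 to 0.14, adjusted p = 0.913) for KO/mock minus WT/mock and 0.01 (-0.16 to 0.17, adjusted p = 0.971, limma) for KO/ERRb-wt minus KO/mock. Against WT/mock the KO/ERRb-wt difference was -0.02 (-0.19 to 0.14, adjusted p = 0.887, limma).

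F11r encodes JAM-A, the family member typical of epithelial tight junctions. Its arrays ran from 8.98 to 9.13 in WT/mock, from 8.79 to 9.03 in KO/mock and from 8.93 to 9.02 in KO/ERRb-wt, with overlap between all labels. No difference was called: the KO/mock mean was lower than WT/mock by 0.14 (95% interval of the difference -0.28 to -0.00, adjusted p = 0.298, limma). The KO/ERRb-wt mean differed by 0.08 from KO/mock (adjusted p = 0.559) and by -0.07 from WT/mock (adjusted p = 0.563, limma).

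Pecam1, a homophilic adhesion receptor, differed in the other direction. On WT/mock it read 8.84 and 8.78 in clone 5-2 and 8.70 and 8.73 in clone 5-5. On KO/mock the levels were 8.91 and 8.95 in clone 8-3 and 8.69 and 8.84 in clone 8-4, and on KO/ERRb-wt 8.99 and 8.99 in clone 12-1 and 8.95 and 9.03 in clone 12-3. The KO/ERRb-wt arrays lie above all 8 others, while WT/mock and KO/mock overlap. Pecam1 rose by 0.23 ± 0.06 from WT/mock to KO/ERRb-wt (1.17-fold, adjusted p = 0.0323, limma). The call was lost without 6 of the 12 arrays, each in WT/mock or KO/ERRb-wt (clone 5-2 replicate 2, both of clone 5-5, both of clone 12-1 and clone 12-3 replicate 2), with adjusted p up to 0.0816. It was also lost without clone 5-2, 5-5, 12-1 or 12-3 and after centring each array on its median (0.19, adjusted p = 0.0882, limma). The KO/mock differences, 0.08 from WT/mock and 0.14 to KO/ERRb-wt, were not called (adjusted p = 0.621 and 0.254, limma). Of 10 endothelial markers 2 were called between KO/ERRb-wt and WT/mock, Tek higher by 0.75 and Vwf lower by 0.38, where 20.8% of all genes were called. Both are dim, with clone means of at most 5.25 and 5.51. The list median was 0.044 in that comparison, with 3 of 10 lower. Between KO/ERRb-wt and KO/mock it was 0.12, with 1 of 10 lower and 0 called, where 4.40% of all genes were called.

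Ocln, the tetraspan protein first found in tight junction strands, is the other member chosen for its stepwise fall. Its log2 level was 7.64, 7.46, 7.57 and 7.30 on the WT/mock arrays, clone 5-2 first. On KO/mock it was 6.87, 6.90, 6.93 and 6.91, clone 8-3 first. On KO/ERRb-wt it was 6.50, 6.55, 6.72 and 6.52, clone 12-1 first. The 3 labels do not overlap, and the KO/mock arrays are closer to one another than those of either other label. The KO/mock mean was 0.59 ± 0.08 (SE, n = 4 arrays per label) below WT/mock, 1.51-fold lower, and the KO/ERRb-wt mean was another 0.33 ± 0.08 lower, 1.89-fold below WT/mock. Every alternative fit kept these signs, which lends no support, since Ocln was chosen by its fall and its labels do not overlap.

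**Figure D1:**
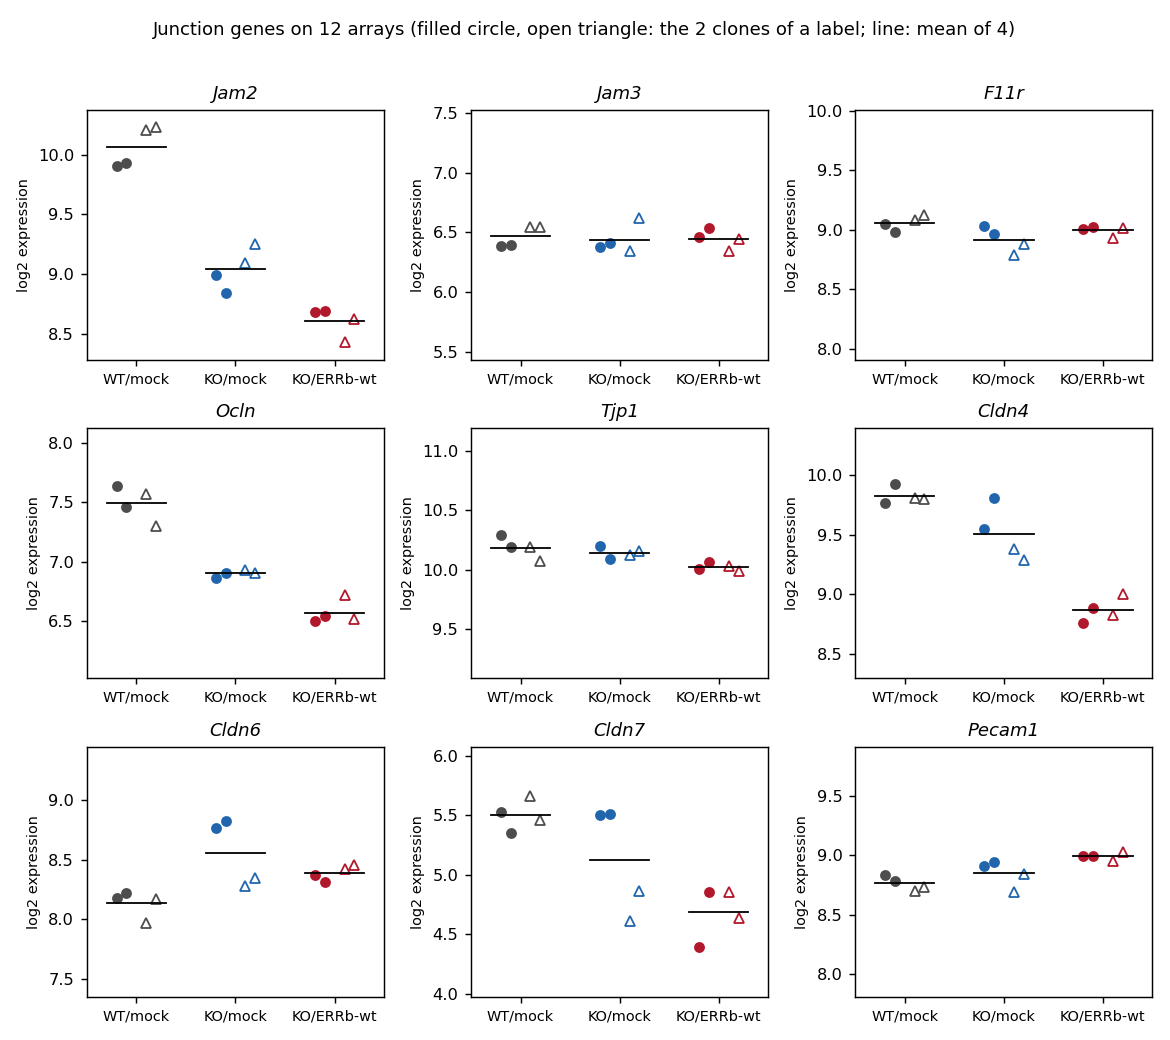
Log2 expression (y axis, each panel spanning the same range) of the 9 junction genes on 12 arrays by label (x axis). Filled circles and open triangles are the 2 clones of a label with 2 arrays each, and lines are the means of 4 arrays. Jam2 and Ocln step down without overlap, from means of 10.07 and 7.49 in WT/mock to 8.61 and 6.57 in KO/ERRb-wt. Jam3 stays between 6.34 and 6.62.

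A stepwise fall of the group means is common on these arrays. It holds for 4876 of 22180 genes (22%). Jam2 and Ocln are among these by choice, and of the 7 other members Tjp1, Cldn4 and Cldn7 fall this way. A fall in which the arrays of the 3 labels do not overlap holds for 446 genes (2.01%), and with at least 0.3 at each step for 169 (0.762%). None of the 7 other members is among either. Jam2 and Ocln are in both, but they were chosen by their fall, so these shares lend them no support. All 3 comparisons reuse the same groups, so the steps are not independent of each other.

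Among the claudins, Cldn4, a sealing claudin of simple epithelia, carried the clearest tested difference. On WT/mock it read 9.77 and 9.93 in clone 5-2 and 9.81 and 9.80 in clone 5-5. On KO/mock it read 9.55 and 9.81 in clone 8-3 and 9.38 and 9.29 in clone 8-4, and on KO/ERRb-wt 8.76 and 8.88 in clone 12-1 and 8.82 and 9.01 in clone 12-3. The KO/ERRb-wt arrays lie below all others, and 1 KO/mock array (clone 8-3 replicate 2) reaches into the WT/mock range. Cldn4 fell by 0.96 ± 0.10 from WT/mock to KO/ERRb-wt (1.94-fold lower, adjusted p = 0.000116, limma) and by 0.64 ± 0.10 from KO/mock to KO/ERRb-wt (1.56-fold lower, adjusted p = 0.00947, limma). The first of these calls held without any array or clone. The second was lost without clone 8-3 (-0.46, adjusted p = 0.0578), 12-1 (-0.59, 0.0584) or 12-3 (-0.68, 0.0504). KO/mock minus WT/mock was -0.32 ± 0.10, which was not called (adjusted p = 0.132). It passed without the array that overlaps WT/mock (-0.42, adjusted p = 0.0188) and without clone 8-3 (-0.49, adjusted p = 0.0155, limma).

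Cldn7, another claudin of simple epithelia, was dim, with a mean of 5.10 over all arrays. On WT/mock it read 5.53 and 5.35 in clone 5-2 and 5.66 and 5.46 in clone 5-5. The KO/mock clones were apart, at 5.50 and 5.51 in clone 8-3 and 4.61 and 4.86 in clone 8-4. The KO/ERRb-wt arrays read 4.40 and 4.86 in clone 12-1 and 4.86 and 4.63 in clone 12-3. They lie below all WT/mock arrays and overlap clone 8-4. Cldn7 fell by 0.81 ± 0.19 from WT/mock to KO/ERRb-wt (1.76-fold lower, adjusted p = 0.0137, limma), a call lost without clone 5-2, 5-5, 12-1 or 12-3 (-0.75 to -0.87, adjusted p up to 0.0788). The differences of -0.38 (KO/mock minus WT/mock) and -0.44 (KO/ERRb-wt minus KO/mock) were not called (adjusted p = 0.380 and 0.252, limma). Each depends on which KO/mock clone is read: without clone 8-3 the first became -0.76 (adjusted p = 0.0213), whereas without clone 8-4 it was 0.0080 and the second became -0.82 (adjusted p = 0.0178). No detection call accompanies these values, so Cldn7 cannot be set against background.

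Cldn6, an early claudin of embryonic epithelium and ES cells, did not follow Cldn4. On WT/mock it read 8.18 and 8.22 in clone 5-2 and 7.97 and 8.17 in clone 5-5. On KO/mock it read 8.76 and 8.83 in clone 8-3 and 8.28 and 8.34 in clone 8-4, and on KO/ERRb-wt 8.37 and 8.31 in clone 12-1 and 8.42 and 8.46 in clone 12-3. All KO/mock and KO/ERRb-wt arrays lie above all WT/mock arrays. The differences from WT/mock were 0.42 ± 0.12 in KO/mock (adjusted p = 0.0851) and 0.25 ± 0.12 in KO/ERRb-wt (adjusted p = 0.194, limma), and neither was called. The first passed with probe sets of mean under 6 left out (adjusted p = 0.0336), without clone 8-4 (0.66, adjusted p = 0.00868) or its replicate 1 (0.51, adjusted p = 0.0446), and the second without clone 8-3 (adjusted p = 0.0347) or 8-4 (adjusted p = 0.0345). KO/ERRb-wt minus KO/mock was -0.16 (95% interval -0.42 to 0.10, adjusted p = 0.504, limma), and without clone 8-4 it was -0.41 (adjusted p = 0.0420) and without clone 8-3 it was 0.080.

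Tjp1, the scaffold ZO-1, varied within narrow limits. Its arrays ran from 10.07 to 10.29 in WT/mock, from 10.09 to 10.20 in KO/mock and from 9.99 to 10.07 in KO/ERRb-wt. The KO/ERRb-wt arrays lie below all 8 others, whereas WT/mock and KO/mock overlap. The difference from WT/mock was -0.16 (95% interval -0.29 to -0.04, adjusted p = 0.0857, limma) for KO/ERRb-wt and -0.04 (-0.17 to 0.09, adjusted p = 0.823) for KO/mock. The former passed without clone 5-5 replicate 2 (-0.20, adjusted p = 0.0356) and after median centring (-0.20, adjusted p = 0.0418), without the dim probe sets (adjusted p = 0.0330) or with a trended robust prior (adjusted p = 0.0266). KO/ERRb-wt minus KO/mock was -0.12 (adjusted p = 0.293, limma).

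**Figure D2:**
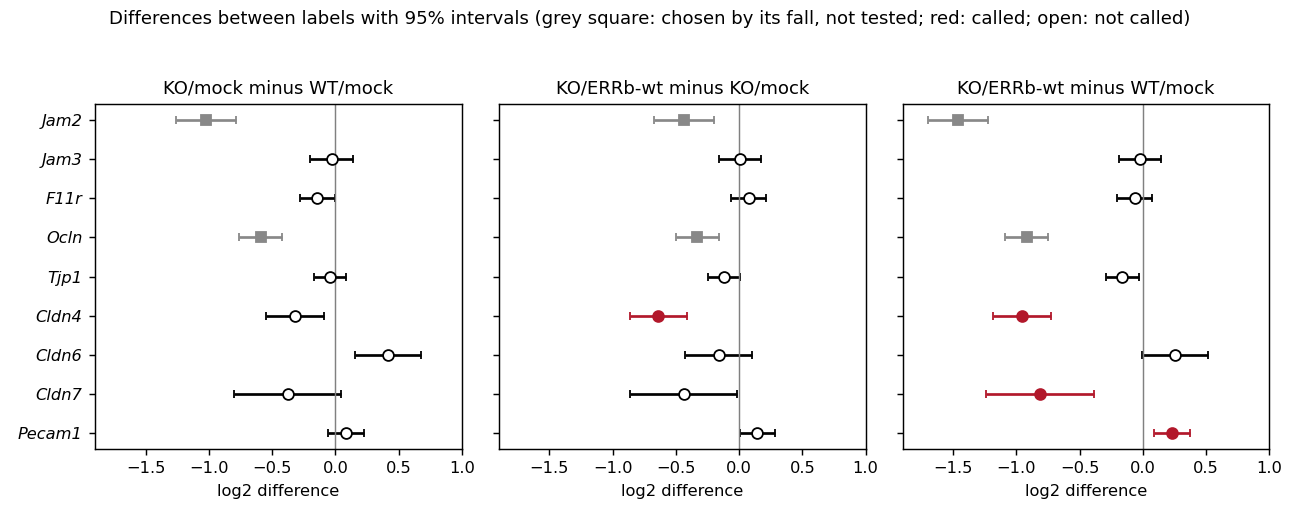
Log2 differences between labels (x axis) for the 9 genes (y axis), 1 panel per comparison, with 95% intervals from limma. Grey squares are Jam2 and Ocln, chosen by their fall and not tested. Their intervals make no allowance for that choice and are not to be read as a test. Red points were called and open circles were not. Cldn4 is at -0.96, Cldn7 at -0.81 and Pecam1 at 0.23 in KO/ERRb-wt minus WT/mock.

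Of the 7 members not chosen by their fall, 0 were called between KO/mock and WT/mock, where 5.58% of all genes were called, 2.11% higher and 3.47% lower. At an unadjusted p under 0.05 (limma) there were 3 of the 7. All genes were not counted at that threshold, so this number has no background beside it. Between KO/ERRb-wt and KO/mock 1 of the 7 fell, beside 4.40% of all genes called, 1.24% higher and 3.17% lower. Of the probe sets called there, 30.4% were higher, and 42.2% after quantile normalization. Between KO/ERRb-wt and WT/mock 3 of the 7 were called, Cldn4 and Cldn7 lower and Pecam1 higher, where 20.8% of all genes were called, 8.82% higher and 12.0% lower. The medians over these 7 members were -0.042, -0.12 and -0.065 in the same order, and those over all genes were 0.00425, 0.0170 and 0.0313. When the 2 arrays of each clone were averaged into 1 value, limma called 10, 0 and 2251 of 41345 probe sets in the 3 comparisons, and 1 of the 7 members held, Cldn4 against WT/mock (adjusted p = 0.0215).

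Clones of one label were also compared, a difference that the choice of Jam2 and Ocln did not use directly. A clean fall between labels favours small gaps between clones, so this comparison is not independent of that choice. None of the 9 members was called between the 2 clones of WT/mock, KO/mock or KO/ERRb-wt (limma with 6 clones as groups, smallest adjusted p 0.546, 0.311 and 0.798). At an adjusted p under 0.05, 0%, 0.00902% and 0% of all genes were called, so the lack of called members says little. At an unadjusted p under 0.05 there were 1, 4 and 0 members. All genes were not counted at that threshold, so these numbers have no background beside them. Between the KO/mock clones, clone 8-4 was below clone 8-3 by 0.77 for Cldn7, by 0.48 for Cldn6 and by 0.35 for Cldn4, and above it by 0.26 for Jam2. The arrays of the 2 clones did not overlap for any of these 4 genes. For Jam2, WT/mock clone 5-5 was 0.30 above clone 5-2, and for Ocln the largest gap between clones of a label was -0.11, in WT/mock.

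**Figure D3:**
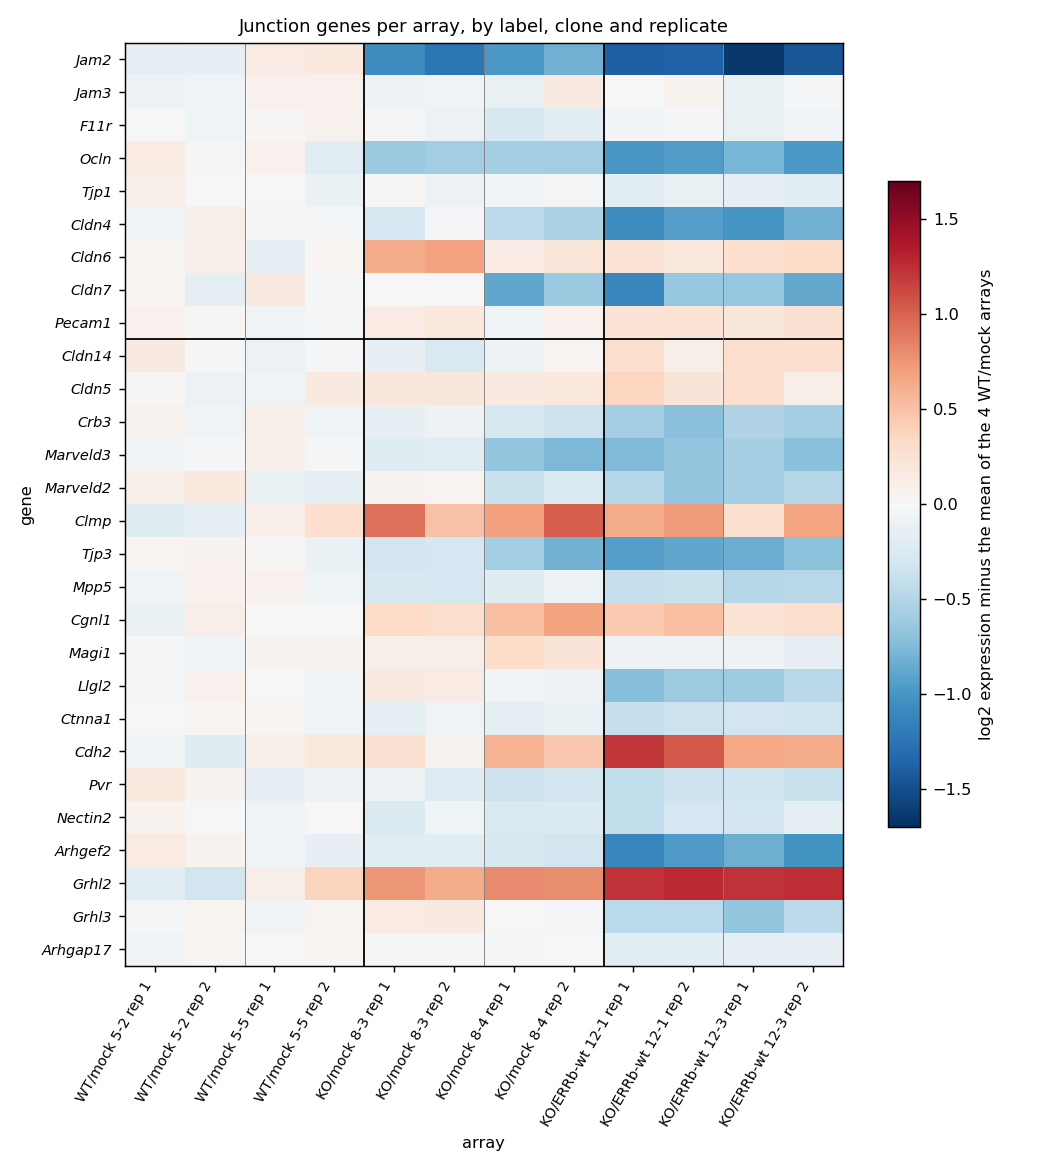
Log2 expression minus the mean of the 4 WT/mock arrays (colour), for the 9 members above the horizontal line and the named genes of the wider lists beneath it (y axis), on each array by label, clone and replicate (x axis). Jam2 and Ocln are blue on all KO/mock and KO/ERRb-wt arrays, and Cldn4, Cldn6 and Cldn7 differ between clones 8-3 and 8-4.

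The other genes of the junction were read from 6 lists of 83 genes, of which 80 were measured (Pals1 appears under its older symbol Mpp5). Between KO/mock and WT/mock 4 of the 80 were called, 3 higher and 1 lower (5.00%). Between KO/ERRb-wt and KO/mock there were 10, 3 higher and 7 lower (12.5%), and between KO/ERRb-wt and WT/mock 19, 5 higher and 14 lower (23.8%). These shares stand beside 5.58%, 4.40% and 20.8% of all genes, and the medians over the 80 were -0.00150, -0.0237 and -0.00517. The same 3 shares of all genes are the background for the counts of each list below. The lists are small, and none was tested as a set. The count of 4 became 1 without clone 5-2 and 0 without clone 8-4, and 2 without either clone 5-2 replicate 1 or clone 8-4 replicate 1. The count of 10 became 3 without clone 8-3, 12-1 or 12-3, and 3 to 6 without any of 8 single arrays (clone 5-2 replicate 1, both of clone 8-3, clone 8-4 replicate 2 and all of clones 12-1 and 12-3). It was 6 with the replicate number as a block, 5 with only the 2 groups compared in the fit and 5 after quantile normalization. The count of 19 became 11 without clone 5-2 or 12-1, and with each clone's arrays averaged the 3 counts were 0, 0 and 8.

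Of 20 other claudins, none was called between KO/mock and WT/mock. At an unadjusted p under 0.05 (limma) there was 1, with no count of all genes at that threshold. In each of the other comparisons 1 rose. Cldn14 rose by 0.35 from KO/mock to KO/ERRb-wt (adjusted p = 0.0399) and Cldn5, the claudin of endothelial barriers, by 0.24 from WT/mock to KO/ERRb-wt (adjusted p = 0.0436, limma). Both are dim, with group means of at most 4.56 and 4.65, and both calls were lost without 7 and 10 of the 12 arrays and 3 and 5 of the 6 clones (adjusted p up to 0.246 and 0.218). Only 2 of these 20 claudins had a mean of at least 6. Cldn3 lies next to Cldn4 in the RefSeq gene order of chromosome 5, and its differences of -0.17, -0.15 and -0.32 were not called (adjusted p = 0.646, 0.593 and 0.147, limma). Its mean was 7.19 in KO/mock clone 8-4 and 7.75 in clone 8-3. Cldn9, the neighbour of Cldn6 on chromosome 17, differed by 0.02, 0.07 and 0.09.

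Among 12 other tight junction membrane proteins, 1 rose between KO/mock and WT/mock, 1 rose and 1 fell between KO/ERRb-wt and KO/mock, and 1 rose and 3 fell between KO/ERRb-wt and WT/mock. The 3 that fell against WT/mock include both other members of the occludin family. Marveld3 was lower by 0.67 (adjusted p = 0.00306, limma) and Marveld2, or tricellulin, by 0.55 (adjusted p = 0.00559, limma), the latter lost without clone 5-2 (-0.42, adjusted p = 0.0804). Marveld2 lies next to Ocln on chromosome 13 with no protein-coding gene between them, yet its profile was not the same: it read 6.57, 6.64, 6.35 and 6.32 on WT/mock, 6.53, 6.52, 6.09 and 6.23 on KO/mock and 5.99, 5.80, 5.90 and 5.98 on KO/ERRb-wt. Its WT/mock and KO/mock arrays overlap, whereas those of Ocln do not. Crb3, an apical polarity protein, fell by 0.59 from WT/mock to KO/ERRb-wt (adjusted p = 0.000392) and by 0.37 from KO/mock (adjusted p = 0.0268, limma), the latter lost without 5 of the 12 arrays and 3 of the 6 clones (adjusted p up to 0.200). Clmp, an adhesion protein of the CAR family to which the junctional adhesion molecules are related, rose by 0.79 in KO/mock (adjusted p = 0.0120) and 0.57 in KO/ERRb-wt against WT/mock (adjusted p = 0.0207, limma). The KO/mock call was lost without clone 5-2 (0.60, adjusted p = 0.147) or 8-4 (0.72, adjusted p = 0.108), and the KO/ERRb-wt call without 4 of the 12 arrays and 2 of the 6 clones (adjusted p up to 0.201).

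Among 8 scaffolds, 1 rose and 1 fell in KO/mock against WT/mock. Tjp3, or ZO-3, a paralogue of Tjp1, fell by 0.50 (adjusted p = 0.0248), and in KO/ERRb-wt against WT/mock by 0.84 (adjusted p = 0.000349, limma). Its arrays read 8.00, 8.02, 7.98 and 7.85 on WT/mock, 7.63, 7.68, 7.38 and 7.15 on KO/mock and 7.03, 7.08, 7.12 and 7.26 on KO/ERRb-wt, so that clone 8-4 reaches into the KO/ERRb-wt range. The Tjp3 call in KO/mock was lost without 4 of the 12 arrays (adjusted p up to 0.0760) and without clone 5-2, 5-5 or 8-4, and the call in KO/ERRb-wt held without any array or clone. Mpp5, the scaffold PALS1 of the Crumbs complex, fell by 0.43 in KO/ERRb-wt against WT/mock (adjusted p = 0.00105, limma). Cgnl1, or paracingulin, rose by 0.46 in KO/mock (adjusted p = 0.0201) and by 0.37 in KO/ERRb-wt (adjusted p = 0.0198, limma) against WT/mock, calls lost without 3 of the 12 arrays and 3 of the 6 clones each (adjusted p up to 0.184 and 0.151). Magi1 fell by 0.29 from KO/mock to KO/ERRb-wt (adjusted p = 0.0322, limma), lost without 8 of the 12 arrays and 4 of the 6 clones (up to 0.160). No test compared Tjp3 with Tjp1, which was not called.

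Of 11 polarity proteins, 0 were called between KO/mock and WT/mock. At an unadjusted p under 0.05 (limma) there was 1, with no count of all genes at that threshold. In each comparison with KO/ERRb-wt 1 fell. That gene was Llgl2, a basolateral polarity protein, lower by 0.64 than in KO/mock (adjusted p = 0.00199) and by 0.60 than in WT/mock (adjusted p = 0.000316, limma). Of 15 adherens junction and nectin genes, 0 were called between KO/mock and WT/mock. At an unadjusted p under 0.05 (limma) there were 7, with no count of all genes at that threshold. Between KO/ERRb-wt and KO/mock 2 fell, where 4.40% of all genes were called. Between KO/ERRb-wt and WT/mock 1 rose and 5 fell, where 20.8% of all genes were called. Cdh2, or N-cadherin, rose by 0.88 against WT/mock (adjusted p = 0.00225, limma), from a mean of 5.64 to 6.52. The KO/ERRb-wt clones were apart, at 6.76 in clone 12-1 and 6.28 in clone 12-3. With each clone's arrays averaged, this call against WT/mock was lost (adjusted p = 0.0677, limma). Ctnna1, or alpha-catenin, fell by 0.36 (adjusted p = 0.000669), Pvr by 0.37 (adjusted p = 0.00783) and Nectin2 by 0.30 (adjusted p = 0.0110, limma) in the same comparison, the last 2 lost without clone 5-2 or 12-1 (adjusted p up to 0.0887 and 0.0953). Ctnna1 also fell by 0.23 from KO/mock to KO/ERRb-wt (adjusted p = 0.0357, limma), lost without 8 of the 12 arrays and 4 of the 6 clones (up to 0.172). Cdh1, or E-cadherin, had group means of 11.37, 11.37 and 11.40.

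Of 14 regulators of junctions, 1 rose between KO/mock and WT/mock, 1 rose and 2 fell between KO/ERRb-wt and KO/mock, and 1 rose and 3 fell between KO/ERRb-wt and WT/mock. The gene that rose was in each case Grhl2, a grainyhead-like factor known to activate epithelial junction genes, claudins among them. It read 5.28, 5.14, 5.55 and 5.83 on WT/mock, 6.20, 6.08, 6.25 and 6.24 on KO/mock and 6.68, 6.72, 6.68 and 6.70 on KO/ERRb-wt, with no overlap between labels. Its differences were 0.74 (adjusted p = 0.00547), 0.50 (adjusted p = 0.0486) and 1.25 (adjusted p = 6.03e-05, limma). The first was lost without clone 8-4 (0.69, adjusted p = 0.0830) and the second without 10 of the 12 arrays and 4 of the 6 clones (adjusted p up to 0.253). Grhl2 was dim on WT/mock, with all arrays below 6. Grhl2 rose in the label order by whose fall Jam2 and Ocln were chosen, and a relation between them was not tested. Its paralogue Grhl3 fell by 0.57 from KO/mock to KO/ERRb-wt (adjusted p = 0.00209) and by 0.51 from WT/mock (adjusted p = 0.000541, limma). Arhgef2, or GEF-H1, an exchange factor held at tight junctions, fell by 0.74 from KO/mock (adjusted p = 0.00127) and by 0.98 from WT/mock (adjusted p = 1.94e-05, limma). Arhgap17 fell by 0.17 from WT/mock to KO/ERRb-wt (adjusted p = 0.0348, limma), lost without 7 of the 12 arrays and 6 of the 6 clones (up to 0.138).

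**Figure D4:**
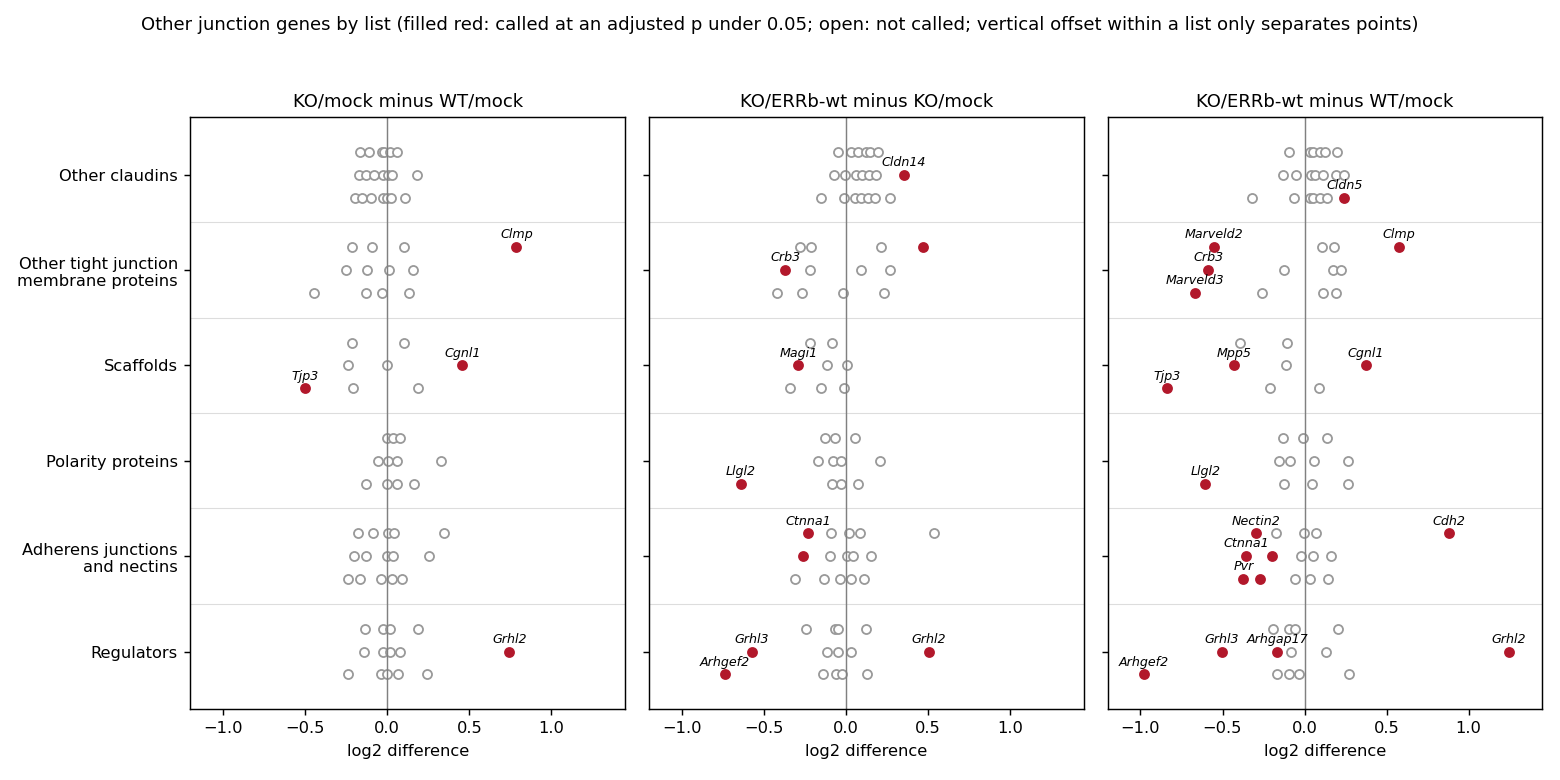
Log2 differences between labels (x axis) of 80 other junction genes in 6 lists (y axis, offsets within a list only separate points), 1 panel per comparison. Filled red points were called at an adjusted p under 0.05, and named genes among them are labelled. Calls number 4, 10 and 19 from left to right, and Grhl2 at 1.25 and Arhgef2 at -0.98 lie far apart in the last panel.

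Genes whose profiles lay closest to Jam2 and Ocln were ranked by the root mean square log2 difference over 12 arrays, after centring each gene on its own mean, among 9097 genes with a mean of at least 6. For Jam2 these were Dpysl2 (0.198), Plagl1 (0.204), Trim35 (0.215), Ddah1 (0.223) and Sdr39u1 (0.227). For Ocln they were Zfpm1 (0.0659), Pcsk6 (0.0699), Tmem260 (0.0811), Dgkh (0.0828) and Ccser2 (0.0862). With a minimum mean of 5, which ranks 11695 genes, 4 of the 5 for Jam2 and all 5 for Ocln were the same genes. Dpysl2, Trim35 and Sdr39u1, and Tmem260, Dgkh and Ccser2, lie on chromosome 14. The 343 genes of that chromosome with a mean of at least 6 had a median of -0.41 between KO/mock and WT/mock, against 0.03 for such genes of other chromosomes, then -0.06 against -0.04 between KO/ERRb-wt and KO/mock. Jam2 lies on chromosome 16 and Ocln on chromosome 13, and none of the 9 members lies on chromosome 14. The ranking describes these arrays, which share 6 clones, and says nothing of shared function or control.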

How the data were processed

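Gene expression was measured on 12 mouse MoGene 2.0 ST arrays, 1 per sample. Per the labels, total RNA was purified with RNeasy columns and labelled with the GeneChip WT Plus kit. The deposited table held log2 expression values for 41345 probe sets (array medians 5.00 to 5.07), computed by the authors by RMA. The submitters' processing notes name Affymetrix Expression Console for it, with no version in the sources used here. RMA brings arrays to a common distribution, so a shift shared by most genes would not show, and no detection call accompanies a value. GEO's platform annotation named 23521 probe sets by 1 symbol, giving 22180 genes; chromosomes and gene order came from RefSeq GRCm38.p6.

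A linear model of 3 groups with the clone entered as random block (consensus correlation 0.0286) was fitted to all probe sets (limma 3.58.1, statmod 1.5.0, R 4.3.3). Tests were two-sided and adjusted by Benjamini-Hochberg over all 41345 probe sets, and called means an adjusted p under 0.05. Counts of genes use 1 probe set each. Errors of differences are the model's SE, and 95% intervals are unadjusted. The scripts were tested on simulated data. Arrays give no depth, so their number limits the precision; p-values measure the spread between arrays called biological replicates, with 2 clones per label.

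The members and lists were chosen with earlier results of these data known. Named genes are the 9 members, Esrrb, up to 4 called genes per junction list by smallest adjusted p, and the 5 profiles closest to Jam2 and to Ocln. Cdh1, Cldn3, Cldn9, Tek, Vwf, Cdh5, Kdr, Eng and Egfl7 were named after their values were seen. Replicate numbers did not pair the samples (differences between replicates 1 and 2 correlated between clones from -0.0433 to 0.141 over 15 pairs). Alternatives were no clone block, clone averages, a replicate block, only the 2 groups compared, median centring, quantile normalization, a filter on dim probe sets, a trended robust prior, and leaving out each array or clone.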

Additional observations from a re-analysis of the deposited data

Results flagged for a closer look

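One value stood apart from the rest of its group. F11r read 8.93 on the KO/ERRb-wt array of clone 12-3 replicate 1, and 9.01 to 9.02 on the other 3 arrays of that label. Its gap to the nearest array is 0.834 of the group's range, just over Dixon's critical value for 4 samples. It was 1 of 27 groups tested (9 genes in 3 labels), where chance flags about 1 in 20 groups. No F11r difference between labels was called with or without this array.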

How the results depend on the processing

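The alternatives were run for the 9 members, Esrrb and the 19 genes named by rule from the junction lists, and not for other genes named. Differences of these genes kept their direction, with the exceptions given below. For Jam2 and Ocln, chosen by their fall, a kept direction lends no support. Leaving out 1 array or clone turned the sign of Jam3 (KO/mock minus WT/mock -0.11 to 0.046, KO/ERRb-wt minus KO/mock -0.044 to 0.069, KO/ERRb-wt minus WT/mock -0.10 to 0.054), and so did median centring (-0.020 for KO/ERRb-wt minus KO/mock) and quantile normalization (0.028 for KO/ERRb-wt minus WT/mock). It also turned, for KO/mock minus WT/mock, Tjp1 (-0.10 to 0.013), Cldn7 (-0.76 to 0.0080), Marveld2 (-0.32 to 0.054), Llgl2 (-0.072 to 0.15) and Grhl3 (-0.013 to 0.15), and for KO/ERRb-wt minus KO/mock F11r (-0.0034 to 0.16), Cldn6 (-0.41 to 0.080), Marveld3 (-0.48 to 0.038) and Cgnl1 (-0.22 to 0.054). Quantile normalization turned Pecam1 between KO/ERRb-wt clones (0.0077). None of these was called in the main comparison, and the cause was not tested.

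Of 1602 probe sets called between KO/mock and WT/mock, the fit of clone averages called 10, with a range of 531 to 1843 when an array or clone was left out. Of 1329 between KO/ERRb-wt and KO/mock it called 0, the fit of only 2 groups 777, and leaving out gave 145 to 1438. Of 6460 between KO/ERRb-wt and WT/mock it called 2251, and leaving out gave 3245 to 6526. The replicate number as a block called 1365, 973 and 6011; it ended no member's call, and among named genes it ended those of Cldn14, Ctnna1 and Grhl2 between KO/ERRb-wt and KO/mock and of Cldn5 between KO/ERRb-wt and WT/mock (adjusted p = 0.0576, 0.0567, 0.0715 and 0.0602, limma). Between clones of WT/mock the count of 0 became 17 with dim probe sets left out and 2 after quantile normalization, and between clones of KO/mock the count of 2 became 21 and 4.

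The counts of members and of listed junction genes were recounted under the same alternatives after the data were seen. Of the 7 tested members, 0, 1 and 3 were called in the 3 comparisons. Clone averages gave 0, 0 and 1, leaving out dim probe sets gave 1 in the first, and leaving out an array or clone gave 0 to 2, 0 to 3 and 1 to 4. Of the 80 listed genes, 4, 10 and 19 were called. Clone averages gave 0, 0 and 8, leaving out an array or clone gave 0 to 6, 3 to 11 and 11 to 21, and for the second the replicate block gave 6, only 2 groups 5 and quantile normalization 5. Averaging over all probe sets of a gene changes no member, since each has 1. Signal over background is not known here, which limits the dim genes Cldn7, Cldn5 and Cldn14.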

Other observations

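Keratins 8 and 18, the intermediate filament pair of simple epithelia, were lower in KO/mock than in WT/mock. Krt18 read 6.30, 6.36, 6.64 and 6.53 on WT/mock, 5.81, 6.09, 5.79 and 5.69 on KO/mock and 5.88, 5.91, 5.83 and 5.95 on KO/ERRb-wt. The KO/mock and KO/ERRb-wt arrays overlap and lie below all WT/mock arrays. Krt18 fell by 0.61 in KO/mock (adjusted p = 0.00431) and by 0.56 in KO/ERRb-wt (adjusted p = 0.00210, limma) against WT/mock. Krt8 fell by 0.44 in KO/mock (adjusted p = 0.0226, limma), and its differences of 0.20 from KO/mock and -0.24 from WT/mock in KO/ERRb-wt were not called. Both genes stand in the list of 10 trophectoderm markers, whose median difference from WT/mock was 0.0041 in KO/mock and 0.13 in KO/ERRb-wt. In that list Cdx2 rose by 0.54 in KO/ERRb-wt against WT/mock (adjusted p = 0.0221, limma), and the 7 others were called in neither comparison with WT/mock. Krt8, Krt18 and Cdx2 were picked out after their values were seen, and were not refitted under the alternatives.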
